A study of Mus musculus with 16 samples.

Results

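The genes described here make sialic acid and attach it to glycans. They were the 9 genes *Cmah*, *Cmas*, *Nans*, *Gne*, *St3gal1*, *St3gal2*, *St3gal6*, *St6gal1* and *St8sia4*, matched by symbol among 54532 genes in RNA-seq counts of TCF1+CD8+ T cells. *Cmah* was picked for its sharp fall with beads, that is, selected on the measured difference between bead-stimulated and unstimulated samples of this series, so its differences with beads are given as a description with no test. Its PGE2 comparisons share untreated samples with that selection, so they carry no test either, and counts of passing genes are over the other 8. Naive CD8+ T cells from spleens of C57BL/6J mice were activated repeatedly in culture over 4 days into TCF1+CD8+ T cells, and all 16 samples share this history. The cells were held for 1 h with or without prostaglandin E2 (PGE2, 100 ng/ml). They then spent 4 h in IL-2 at 85 U/ml, either alone (called unstimulated) or with anti-CD3/CD28 beads added, 1 per cell, which engage the T cell receptor complex and its costimulator (called stimulated). Each of the 4 groups held 4 replicates. The unstimulated cells had therefore received IL-2 and the earlier activations as well, and the cells are a culture model rather than T cells taken from a tumour. Nothing states whether the replicates came from separate mice or cultures, so the p-values measure the spread between these samples, which may be technical.

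Sialic acids are acidic sugars that cap the glycans of cell surface glycoproteins and glycolipids. The bifunctional enzyme Gne opens the pathway from UDP-N-acetylglucosamine, Nans condenses its product into the sialic acid skeleton, and Cmas activates the free sugar to its CMP form, the donor that every sialyltransferase uses. Cmah hydroxylates that donor, which turns the N-acetyl form of sialic acid into the N-glycolyl form that mice make and humans, whose gene is inactive, do not. The St3gal enzymes attach sialic acid to galactose by a 2,3 linkage and St6gal1 by a 2,6 linkage. St8sia4 builds chains of 2,8-linked polysialic acid. In T cells, sialylation is known to change with activation and to affect the binding of galectins, selectins and siglecs.

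The sum of counts per sample ranged from 22678254 to 42950763, and mitochondrial genes took 1.43% to 1.77% of the counts. Libraries of 1 group differed by more than sampling noise (chi-square per degree of freedom of 8.90 to 60.9 over pairs). T cell markers were high in every group: mean *Cd3e* lay between 225 and 323 CPM over the groups and mean *Cd8a* between 719 and 1151 CPM. *Tcf7*, which encodes TCF1, averaged 1175 CPM in unstimulated and 309 CPM in stimulated cells without PGE2. Levels are CPM, counts relative to the library size after TMM scaling, and fold changes come from edgeR's quasi-likelihood test. A gene passed at a Benjamini-Hochberg adjusted p below 0.05 over all genes tested, and a DEG also changed by at least 2-fold. Summed markers of myeloid cells (5 genes) lay between 3.04 and 6.57 CPM and of erythroid cells (5 genes) at or below 0.423 CPM. The NK cell list (4 genes) was higher with beads, at 112 to 178 CPM against 12.6 to 24.3 CPM without PGE2, nearly all of it *Eomes*, which CD8+ T cells also express, with the defining marker *Ncr1* at 0 in every sample. With PGE2 the NK sum lay between 36.6 and 128 CPM with beads and between 5.66 and 10.9 CPM without beads. It thus also lay lower with PGE2, with overlap in stimulated but not in unstimulated cells. Of the CD4+ T cell list (4 genes), the sum lay between 27.4 and 34.9 CPM in unstimulated and between 19.7 and 24.8 CPM in stimulated samples without PGE2, and between 29.0 and 40.6 CPM and between 18.0 and 27.6 CPM with it, so it was lower with beads without overlap. Most of it was *Zbtb7b*, while the defining marker *Cd4* had group means of 0.311 to 0.629 CPM. The part of both lists in the results was not tested. In bulk samples, fewer cells of a type and less RNA per cell cannot be told apart.

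Upstream sequence is shown for the donor genes *Cmah* and *Cmas*, for *St8sia4* as the transferase whose level followed that of *Cmah* most closely, and for *St3gal6* as the only one of the 8 genes tested that was a DEG with PGE2. The RefSeq promoter table (GRCm38.p6, the build of the counts) matched 6 of the 9 genes, with 11 transcription starts. *Nans*, *St3gal1* and *St3gal2* were not matched. Each sequence holds the 250 bases before a start, 5′ to 3′ in the direction of transcription. Sequence shortly after the downstream start of *Cmah* matched no *Cmah* transcript of GENCODE M21, while that after every other start matched a transcript of its gene. A set of 6 short motifs was searched on both strands, and capitals mark every match.
*Cmah*, upstream start, chr13:24327154-24327403, plus strand: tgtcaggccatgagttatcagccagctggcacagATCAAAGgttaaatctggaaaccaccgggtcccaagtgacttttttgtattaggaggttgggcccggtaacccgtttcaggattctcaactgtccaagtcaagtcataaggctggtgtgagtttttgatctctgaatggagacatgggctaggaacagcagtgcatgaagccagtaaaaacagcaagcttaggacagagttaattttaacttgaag
*Cmah*, downstream start, chr13:24414872-24415121, plus strand: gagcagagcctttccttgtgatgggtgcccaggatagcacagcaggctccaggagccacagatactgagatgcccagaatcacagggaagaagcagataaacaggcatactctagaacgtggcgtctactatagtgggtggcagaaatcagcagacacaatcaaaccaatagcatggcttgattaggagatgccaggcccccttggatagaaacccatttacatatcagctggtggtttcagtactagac
*Cmas*, chr6:142756436-142756685, plus strand: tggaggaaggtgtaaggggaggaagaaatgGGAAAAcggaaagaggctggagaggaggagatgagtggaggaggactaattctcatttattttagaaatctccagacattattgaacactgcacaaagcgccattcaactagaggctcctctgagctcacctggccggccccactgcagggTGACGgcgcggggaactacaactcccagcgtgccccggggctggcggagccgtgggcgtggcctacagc
*St8sia4*, chr1:95667595-95667844, minus strand: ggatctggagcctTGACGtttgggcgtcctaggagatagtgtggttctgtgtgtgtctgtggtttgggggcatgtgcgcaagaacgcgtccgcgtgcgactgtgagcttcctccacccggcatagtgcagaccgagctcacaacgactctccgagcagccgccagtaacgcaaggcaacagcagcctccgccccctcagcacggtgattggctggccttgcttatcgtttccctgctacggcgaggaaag
*St3gal6*, upstream start, chr16:58524254-58524503, minus strand: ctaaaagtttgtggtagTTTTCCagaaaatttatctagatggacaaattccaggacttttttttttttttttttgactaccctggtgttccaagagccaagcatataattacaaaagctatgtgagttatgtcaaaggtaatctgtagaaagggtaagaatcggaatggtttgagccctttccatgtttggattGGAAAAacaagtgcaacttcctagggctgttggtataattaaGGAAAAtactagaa
*St3gal6*, downstream start, chr16:58523427-58523676, minus strand: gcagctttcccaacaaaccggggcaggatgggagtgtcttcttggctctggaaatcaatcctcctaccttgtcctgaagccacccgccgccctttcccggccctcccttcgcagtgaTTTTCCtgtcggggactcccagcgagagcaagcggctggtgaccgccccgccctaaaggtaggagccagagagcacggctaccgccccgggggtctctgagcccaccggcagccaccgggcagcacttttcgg

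The cAMP response element TGACGTCA, the site of the factors that cAMP activates, was in none of the 11 windows and in 1.55% of all 32851 promoters. Its shorter form TGACG, which lies within the full element, was in the *Cmas* and *St8sia4* windows and in 17.8% of all promoters. The NFAT core GGAAAA matched 3 times before the upstream start of *St3gal6*, and 1 time each before its downstream start and before *Cmas*. That core was in 20.4% of all promoters. The TCF/LEF core CTTTGAT, read on the opposite strand as ATCAAAG, was in the window before the upstream start of *Cmah* and in 3.21% of all promoters. It was added to the search after the *Cmah* sequence had been read. The AP-1 site TGANTCA was before 1 of 3 starts of *St6gal1* (6.75% of all promoters) and the FOXO core GTAAACA was in no window (3.17%). These matches describe letters only.

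In the synthesis pathway, *Nans* fell and *Cmas* rose with PGE2, with and without beads, and *Gne* passed in neither comparison. *Gne* (chromosome 4, 44034075 to 44084177, minus strand) encodes the epimerase and kinase of the first steps. It measured 51.0, 53.5, 61.7 and 56.1 CPM in unstimulated replicates 1 to 4, and 52.7, 49.2, 55.9 and 52.2 CPM in those with PGE2. The stimulated replicates held 43.4, 46.9, 49.2 and 49.5 CPM without PGE2 and 43.0, 43.4, 45.9 and 46.8 CPM with it. All stimulated samples thus lay below all unstimulated samples of the same treatment. With beads, *Gne* fell by 0.25 on the log2 scale without PGE2 (SE 0.079, adjusted p = 0.0126) and by 0.22 with it (SE 0.070, adjusted p = 0.0184). Its log2 change with PGE2 was −0.07 in stimulated (adjusted p = 0.536) and −0.06 in unstimulated cells (adjusted p = 0.580).

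*Nans* (chromosome 4, 46489248 to 46503632, plus strand), the sialic acid synthase gene, varied little within groups and fell with PGE2 in both states. The unstimulated replicates held 88.9, 85.9, 88.1 and 87.4 CPM, and those with PGE2 held 69.8, 66.1, 69.8 and 74.5 CPM. In stimulated cells the values were 97.8, 93.1, 95.8 and 90.5 CPM without PGE2 and 77.0, 76.3, 74.7 and 75.3 CPM with it. No PGE2-treated sample reached the level of an untreated one in the same state. *Nans* fell by 0.30 on the log2 scale in unstimulated cells (SE 0.054, adjusted p = 0.00154) and by 0.31 in stimulated cells (SE 0.054, adjusted p = 0.00708). The bead comparisons gave +0.09 without PGE2 (adjusted p = 0.204) and +0.13 with it (adjusted p = 0.106), below the threshold although the groups did not overlap. Exons of *Trim14* on the opposite strand cover 29.6% of the exon bases of *Nans*, with 12090 counts for *Trim14* over all samples against 39555 for *Nans*. Whether counting used strand is not stated, so reads in that stretch are uncertain.

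*Cmas* (chromosome 6, 142756686 to 142775714, plus strand) encodes the nuclear enzyme that forms the CMP-sialic acid donor. It measured 93.2, 94.7, 94.8 and 91.9 CPM in unstimulated cells and 116, 113, 114 and 108 CPM after PGE2. Stimulated cells held 68.8, 65.3, 69.0 and 71.1 CPM without PGE2 and 81.7, 87.6, 93.0 and 102 CPM with it. The groups with and without PGE2 did not overlap in either state. *Cmas* rose with PGE2 by 0.29 on the log2 scale in unstimulated cells (SE 0.048, adjusted p = 0.00106) and by 0.42 in stimulated cells (SE 0.075, adjusted p = 0.00809). With beads it fell by 0.47 without PGE2 (SE 0.060, adjusted p = 1.76e-05) and by 0.29 with PGE2 (SE 0.071, adjusted p = 0.00372). The mean with beads and PGE2, 91.0 ± 8.45 CPM (SD, n = 4), was close to the 93.7 ± 1.38 CPM of cells given neither, a pair of groups that was not tested against each other.

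*Cmah* (chromosome 13, 24327404 to 24477377, plus strand), the hydroxylase gene for which the set was drawn, had the widest range of the synthesis genes. The unstimulated replicates held 243, 226, 204 and 179 CPM, and those with PGE2 held 265, 246, 217 and 188 CPM. The stimulated replicates held 39.1, 37.4, 38.1 and 42.0 CPM, far below any unstimulated sample. With PGE2 and beads the values were 60.2, 62.1, 67.5 and 68.9 CPM, between the other levels and overlapping none of them. As a description, the log2 difference with beads was −2.46 without PGE2, a 5.49-fold lower level, and −1.81 with PGE2, a 3.50-fold lower level.

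The untreated samples on which *Cmah* was chosen are also the reference of its PGE2 comparisons, so these are described in the same way. In stimulated cells the log2 difference with PGE2 was 0.73 (SE 0.070), a 1.66-fold higher level, and all samples with PGE2 lay above all samples without. In unstimulated cells it was 0.12 (SE 0.11) with overlapping groups, and each PGE2-treated replicate lay above the untreated replicate of the same number. In 1 fit of all 16 samples, the difference between the 2 PGE2 values was 0.62 (SE 0.15). In that fit it is also the difference between the 2 changes with beads, which the pairwise values above give only approximately.

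**Figure D1:**
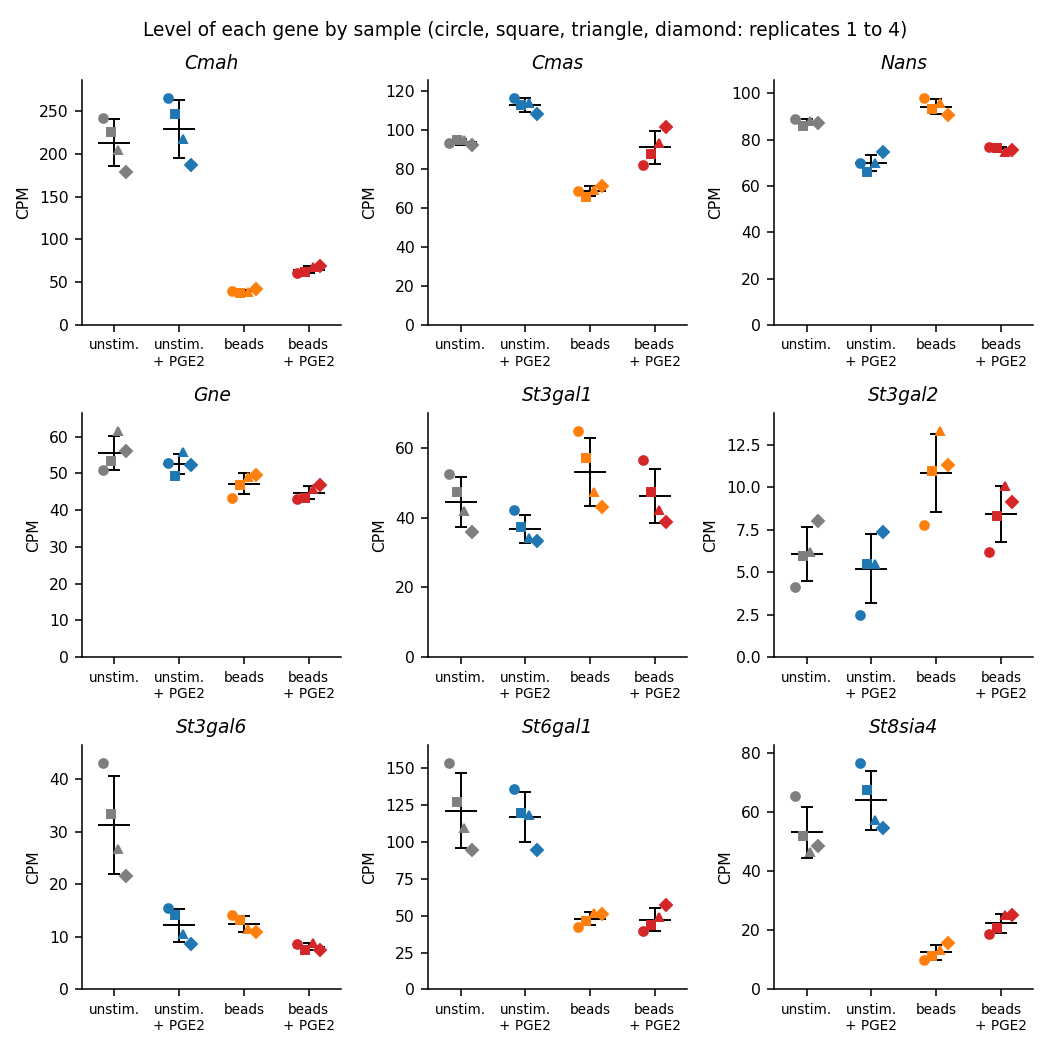
Level of each of the 9 genes in TMM-scaled CPM (vertical axes, starting at 0) for the 16 samples in 4 groups, with the symbol giving the replicate and the black lines the mean ± SD (n = 4). *Cmah*, *St6gal1* and *St8sia4* lie lower in both bead groups. In the *Nans* panel all samples with PGE2 lie below all samples without it, and the bead groups lie slightly higher within each treatment.

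Among the sialyltransferases of the set, *St6gal1* and *St8sia4* fell by over 2-fold in both bead comparisons. Of the 2 genes for 2,3 sialylation of O-glycans, *St3gal2* rose in both bead comparisons and *St3gal1* only in that with PGE2. In that comparison the *St3gal2* call was lost in 6 and the *St3gal1* call in 5 of 8 fits that left out 1 library. *St8sia4* (chromosome 1, 95587682 to 95667571, minus strand) makes polysialic acid, a modification known from NCAM, neuropilin-2 and the chemokine receptor CCR7. Its unstimulated replicates held 65.7, 52.1, 46.5 and 48.4 CPM without PGE2 and 76.7, 67.5, 57.5 and 54.7 CPM with it. Stimulated cells held 9.85, 11.4, 13.3 and 15.5 CPM without PGE2. With PGE2 they held 18.8, 20.8, 25.3 and 25.1 CPM, all above the stimulated samples without PGE2 and below all unstimulated samples. For *St8sia4* too, replicate 1 was the highest sample in both unstimulated groups and the lowest in both stimulated groups.

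With beads, *St8sia4* fell by 2.11 on the log2 scale without PGE2 (SE 0.14, 4.31-fold lower, adjusted p = 6.88e-08) and had a log2 change of −1.496 with PGE2 (SE 0.12, 2.82-fold lower, adjusted p = 3.14e-06). PGE2 raised it by 0.85 in stimulated cells (SE 0.16, 1.81-fold, adjusted p = 0.00846). In unstimulated cells the change was 0.29 (SE 0.12, adjusted p = 0.0878). That call turned on single libraries: the adjusted p was 0.0159 without untreated replicate 1 and 0.0431 without PGE2 replicate 4. It was 0.0436 without a filter on low counts and 3.27e-05 with the replicate block, and the PGE2-treated sample was the higher one in 4 of 4 number pairs. Per length of all annotated exons (FPKM), *St8sia4* was the lowest of the 9 genes in both stimulated groups, though with PGE2 it overlapped *St3gal6*.

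*St6gal1* (chromosome 16, 23224740 to 23360350, plus strand) encodes the main 2,6-sialyltransferase of N-glycans. It measured 154, 127, 110 and 94.6 CPM in unstimulated cells and 136, 120, 118 and 94.4 CPM after PGE2. With beads it measured 42.6, 46.2, 52.0 and 51.0 CPM without PGE2 and 39.3, 43.4, 49.3 and 57.4 CPM with it. The bead groups lay wholly below the groups without beads, and the groups with and without PGE2 overlapped in both states. Replicate 1 was the highest sample without beads and the lowest with beads in both treatments. The fall was smallest between the samples numbered 4, at 94.6 against 51.0 CPM without PGE2 and 94.4 against 57.4 CPM with it. With beads *St6gal1* fell by 1.35 on the log2 scale without PGE2 (SE 0.13, 2.55-fold lower, adjusted p = 1.06e-06) and by 1.29 with PGE2 (SE 0.13, 2.45-fold lower, adjusted p = 7.95e-06). Its log2 change with PGE2 was −0.01 in stimulated cells (SE 0.12, adjusted p = 0.959) and −0.03 in unstimulated cells (SE 0.14, adjusted p = 0.902).

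B cells also express *St6gal1*, and the summed level of 4 B cell markers moved the same way. The sum lay between 11.99 and 19.3 CPM in unstimulated samples and between 4.88 and 10.7 CPM in stimulated samples without PGE2. With PGE2 it lay between 9.98 and 15.8 CPM without beads and between 4.37 and 8.14 CPM with beads. Most of it was *Cd79b*, at a mean of 13.1 CPM in unstimulated and 5.45 CPM in stimulated untreated cells. The defining B cell marker *Ms4a1* had group means of at most 0.232 CPM. The part of these markers in the *St6gal1* result was not tested.

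*St3gal6* (chromosome 16, 58468125 to 58524243, minus strand), which adds 2,3-linked sialic acid to N-acetyllactosamine and takes part in making selectin ligands, fell with either treatment alone. Its replicates held 43.0, 33.4, 26.7 and 21.6 CPM in unstimulated cells and 15.5, 14.1, 10.6 and 8.58 CPM after PGE2. Stimulated cells held 14.2, 13.2, 11.5 and 10.9 CPM without PGE2 and 8.64, 7.58, 8.83 and 7.43 CPM with it. Every sample given PGE2, beads or both thus lay below every sample given neither. In unstimulated cells *St3gal6* fell with PGE2 by 1.34 on the log2 scale (SE 0.22, 2.53-fold lower, adjusted p = 0.000823). In stimulated cells it fell with PGE2 by 0.61 (SE 0.12, adjusted p = 0.0101).

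With beads, *St3gal6* fell by 1.32 without PGE2 (SE 0.18, 2.50-fold lower, adjusted p = 3.19e-05) and by 0.56 with PGE2 (SE 0.17, adjusted p = 0.0147). In the last comparison the groups overlapped. The difference between its PGE2 responses in the 2 states was 0.74 on the log2 scale (SE 0.28, adjusted p = 0.347). Exons of *Dcbld2* on the opposite strand cover 26.0% of its exon bases, with 857 counts against 7657 for *St3gal6*, so part of the count is uncertain.

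*St3gal1* (chromosome 15, 67102875 to 67176830, minus strand) caps core 1 O-glycans and is known to be needed by CD8+ T cells. It measured 52.5, 47.3, 41.9 and 35.9 CPM in unstimulated cells and 42.1, 37.2, 34.0 and 33.2 CPM with PGE2. With beads it measured 64.9, 57.1, 47.5 and 43.0 CPM without PGE2 and 56.5, 47.2, 42.1 and 38.8 CPM with it. Replicate 1 was the highest and replicate 4 the lowest sample in all 4 groups, and the groups overlapped in every comparison. Within each group the samples spread over more CPM than the group means differed between treatments of the same state.

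In the fits of all samples without a block, *St3gal1* passed only with beads and PGE2, where it rose by 0.35 on the log2 scale (SE 0.13, adjusted p = 0.0283). This call was lost when replicate 1 or 2 of the stimulated or replicate 2, 3 or 4 of the unstimulated PGE2 group was left out, with an adjusted p of 0.0566 to 0.114. It was also lost with upper-quartile factors (adjusted p = 0.0856), without a filter on low counts (adjusted p = 0.0515) and on log2 FPKM (adjusted p of 0.0656 to 0.140). With beads and no PGE2 the change was 0.25 (adjusted p = 0.135), or 0.36 without stimulated replicate 4 (adjusted p = 0.0328). With PGE2 the log2 change was −0.19 in stimulated cells (adjusted p = 0.399) and −0.26 in unstimulated cells (adjusted p = 0.102), or −0.35 without untreated replicate 4 (adjusted p = 0.0190). With the replicate block all 3 of these passed: beads without PGE2 (adjusted p = 0.00383), PGE2 in stimulated cells (adjusted p = 0.00662) and PGE2 in unstimulated cells (adjusted p = 0.000678).

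*St3gal2* (chromosome 8, 110919922 to 110972480, plus strand), which sialylates O-glycans and gangliosides, had 71 to 338 counts per sample. Unstimulated cells held 4.10, 5.93, 6.17 and 7.98 CPM without PGE2 and 2.50, 5.49, 5.45 and 7.38 CPM with it. Stimulated cells held 7.76, 11.0, 13.3 and 11.3 CPM without PGE2 and 6.18, 8.29, 10.04 and 9.14 CPM with it. Replicate 1 was the lowest sample in all 4 groups. *St3gal2* rose with beads by 0.81 on the log2 scale without PGE2 (SE 0.20, adjusted p = 0.00283) and by 0.69 with PGE2 (SE 0.27, adjusted p = 0.0463), though the groups overlapped in both comparisons.

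The call with PGE2 was lost when replicate 1, 2 or 3 of the unstimulated or replicate 2, 3 or 4 of the stimulated PGE2 group was left out, with an adjusted p of 0.0653 to 0.126. It was also lost with upper-quartile factors (adjusted p = 0.112), with 10 counts in every sample (adjusted p = 0.0575), on log2(FPKM + 0.1) (adjusted p = 0.0574) and on log2(FPKM + 1) without a filter (adjusted p = 0.109). Without unstimulated PGE2 replicate 1 the change was 0.43. PGE2 changed *St3gal2* by −0.36 in stimulated cells (adjusted p = 0.259), which passed with the replicate block (adjusted p = 0.00422), and by −0.19 in unstimulated cells (adjusted p = 0.681).

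**Figure D2:**
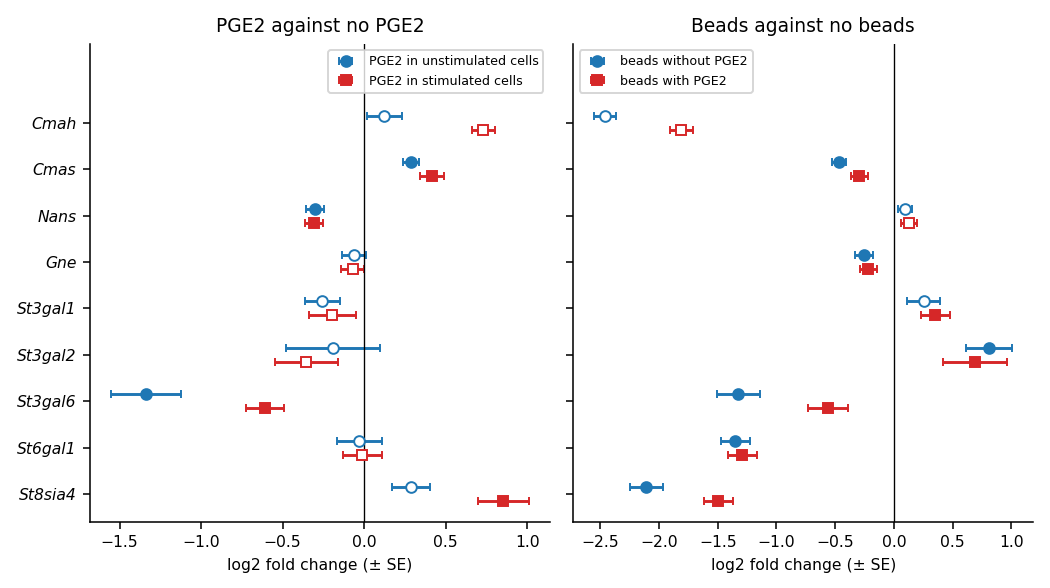
Log2 fold change ± SE from edgeR (horizontal axes) of the 9 genes for PGE2 against no PGE2 (left) and beads against no beads (right), 4 samples against 4. Filled symbols passed at an adjusted p below 0.05 and open symbols did not, except that *Cmah* is open throughout because it was not tested. *Nans* and *St3gal6* lie left of 0 and *Cmas* right of 0 for PGE2 in both states, while *St6gal1* sits at 0 for PGE2 and below −1 for beads.

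Counted over the set without *Cmah*, 4 of the 8 genes passed for PGE2 in stimulated cells, 2 higher (*Cmas*, *St8sia4*) and 2 lower (*Nans*, *St3gal6*), and none was a DEG, with edgeR or with DESeq2. At an unadjusted p below 0.05 there were also 4, where 27.0% of all genes had one. Over all genes tested there, 6.04% passed as higher, 3.80% passed as lower and 1.75% were DEGs. In unstimulated cells 3 of the 8 passed with PGE2, 1 higher (*Cmas*) and 2 lower (*Nans*, *St3gal6*), against 12.9% and 15.5% of all genes. *St3gal6* was the 1 DEG, against 3.38% of all genes. The block raised these counts to 6 of 8 in stimulated and 5 of 8 in unstimulated cells, and it raised the share of all genes that passed in either direction to 39.8% and 47.8%. The median log2 change of the 8 genes was −0.13 in stimulated and −0.13 in unstimulated cells, beside −0.01 and 0.00 over all genes.

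For beads without PGE2, 6 of the 8 genes other than *Cmah* passed, 1 higher and 5 lower, where 31.7% of all genes passed as higher, 34.8% as lower and 23.2% were DEGs. With the replicate block 7 passed, against 72.3% of all genes. The 3 DEGs were *St3gal6*, *St6gal1* and *St8sia4*. For beads with PGE2, 7 of the 8 passed, 2 higher and 5 lower, and 2 were DEGs (*St6gal1* and *St8sia4*). The shares of all genes were 32.5%, 31.7% and 22.1%. Leaving out any 1 library lowered the 7 to 5 or 6 through *St3gal1* and *St3gal2*. The median log2 change of the 8 genes with beads was −0.36 without and −0.26 with PGE2, beside −0.03 and 0.00 over all genes. The comparisons share their control samples pairwise and are given side by side only.

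None of the 8 genes passed the interaction test of edgeR, which asks whether the response to PGE2 differed between stimulated and unstimulated cells, where 0.517% of all genes passed as higher and 0.232% as lower. *St3gal6* and *St8sia4* had an unadjusted p below 0.05, 2 of the 8, as had 9.37% of all genes. DESeq2 called 0. With the replicate block 1 passed, *St3gal6* (adjusted p = 0.0280), against 2.70% of all genes, though the number was not taken as a pairing in that fit. For *St8sia4* the difference was 0.58 on the log2 scale (SE 0.21, adjusted p = 0.318). For *Nans* it was 0.01 (SE 0.074), for *Gne* 0.01 (SE 0.099) and for *St6gal1* 0.03 (SE 0.20). Whether *St3gal6* and *St8sia4* respond to PGE2 differently in the presence of beads is therefore not shown by the interaction test without a block.

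Levels of different genes were compared on the deposited FPKM values, which account for length. That length counts all annotated exon bases of a gene, which need not be those of the transcript expressed. It was 20091 bases for *St8sia4* and 10660 for *Cmah*, beside 4581 (*Nans*) to 6851 (*St3gal1*) for the others. Ranks and ratios between genes depend on these lengths. In unstimulated cells *St6gal1* (23.4 ± 5.003 FPKM), *Cmah* (19.0 ± 2.53), *Cmas* (18.9 ± 0.291) and *Nans* (18.2 ± 0.272; SD, n = 4 each) formed an upper group in which neighbours overlapped. *Gne* (8.31 ± 0.644), *St3gal1* (6.16 ± 1.02) and *St3gal6* (4.81 ± 1.45) followed, with overlap between the last 2 of these. *St8sia4* (2.52 ± 0.420) and *St3gal2* (1.14 ± 0.296) were lowest and apart. With PGE2 *St3gal6* (1.90 ± 0.502) moved below *St8sia4* (3.07 ± 0.489), without overlap.

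In stimulated cells the order was different. *Nans* (19.6 ± 0.985 FPKM) was the highest, clear of *Cmas* (13.8 ± 0.394), which was clear of *St6gal1* (9.26 ± 0.663). The range of *St6gal1* overlapped that of *St3gal1*. *Cmah* (3.49 ± 0.157) stood sixth, below *St3gal1* (7.39 ± 1.53) and *Gne* (7.06 ± 0.282), which overlapped. *St8sia4* (0.591 ± 0.104) was last, below *St3gal2* (2.04 ± 0.404) and *St3gal6* (1.92 ± 0.276), which overlapped. With beads and PGE2 the first places were taken by *Cmas* (18.3 ± 1.56) and *Nans* (15.7 ± 0.382), apart from each other and in the reverse order.

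The FPKM ratio of *Cmah* to *Cmas*, hydroxylase to donor synthase, averaged 1.01 ± 0.126 in unstimulated cells and 0.897 ± 0.111 with PGE2. It averaged 0.252 ± 0.00709 in stimulated cells and 0.315 ± 0.0112 with PGE2 (SD, n = 4 each). The 2 stimulated groups did not overlap (0.244 to 0.261 and 0.300 to 0.326). As *Cmah* was picked for its fall with beads, the drop of this ratio with beads is a description. The differences of the ratio with PGE2 share the untreated samples of that selection and are a description as well. The ratio of *St6gal1* to *St3gal1*, a 2,6 over a 2,3 enzyme, averaged 3.78 ± 0.199 in unstimulated cells, 4.44 ± 0.363 with PGE2, 1.31 ± 0.345 with beads and 1.49 ± 0.469 with both. Its lowest value without beads, 3.64, lay above its highest value with beads, 2.06. The ratio covers 2 single genes and does not measure the balance of linkages. Of the St3gal genes, *St3gal4* had the highest mean FPKM in every group. Without PGE2 it was at 15.5 FPKM in unstimulated and 21.6 FPKM in stimulated cells.

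**Figure D3:**
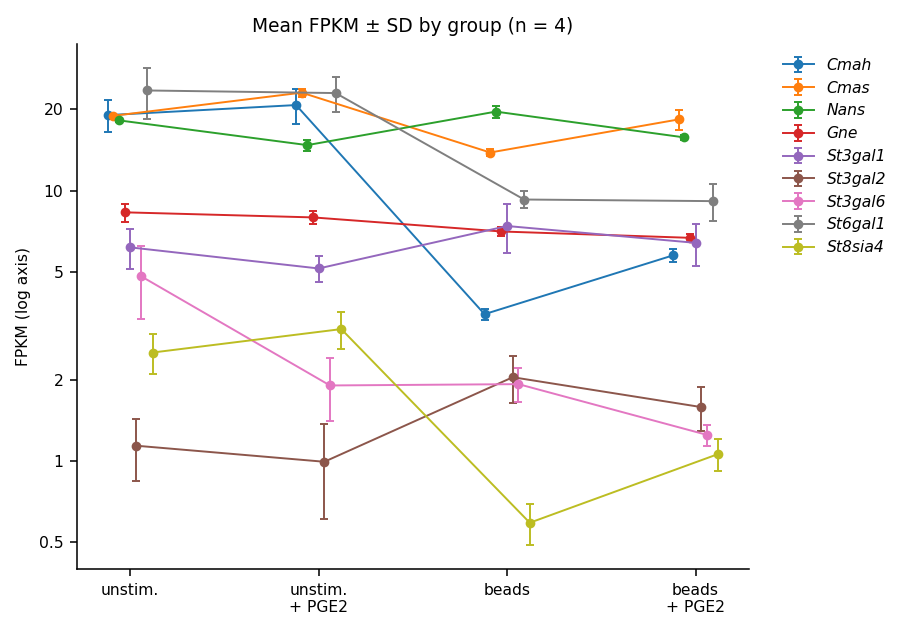
Mean deposited FPKM ± SD (n = 4; vertical axis, log scale) of the 9 genes in the 4 groups, with lines joining the means of 1 gene. *Cmah* falls from 19.0 to 3.49 FPKM and *St8sia4* from 2.52 to 0.591 FPKM with beads, while *Nans* is at 18.2 and 19.6 FPKM in the same 2 groups.

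The pattern of *Cmah* over the 16 samples was compared with that of every gene with a mean of at least 10 CPM, 8868 genes in all, by Pearson's r on log2 CPM. The samples share their groups, so the large step with beads sets much of each r. The most alike were *Aqp3*, *Tmem71*, *Ttc38*, *Tbxa2r* and *Rnf167* (r between 0.996 and 0.997). *Tmem71*, for instance, averaged 139 CPM in unstimulated cells, 158 CPM with PGE2, 23.1 CPM with beads and 40.2 CPM with both. Among the other 8 genes of the set, r was 0.98 for *St8sia4*, 0.95 for *St6gal1*, 0.85 for *Cmas*, 0.72 for *Gne* and 0.54 for *St3gal6*. It was −0.78 for *St3gal2*, −0.56 for *St3gal1* and −0.49 for *Nans*.

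The rest of the sialyltransferase family was read from a list of 15 further genes. *St6galnac4*, which adds 2,6-linked sialic acid to sialylated core 1 O-glycans, moved further with beads than any of the 9 genes and in the opposite direction to *St6gal1*. It averaged 42.7 ± 2.52 CPM in unstimulated cells, 16.6 ± 2.27 CPM with PGE2, 270 ± 43.9 CPM with beads and 231 ± 69.5 CPM with both (SD, n = 4 each). It rose with beads by 2.65 on the log2 scale without PGE2 (6.28-fold, adjusted p = 1.02e-08) and by 3.82 with PGE2 (14.1-fold, adjusted p = 1.14e-06). In unstimulated cells it fell with PGE2 by 1.34 (2.53-fold lower, adjusted p = 5.20e-06), while in stimulated cells the change was −0.21 (adjusted p = 0.510). At 39.7 FPKM with beads it stood above all 9 genes.

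The interaction for *St6galnac4* was 1.14 on the log2 scale (adjusted p = 0.0356). Of the 16 refits that each dropped 1 library, this call held in 3, those without PGE2-treated replicate 4 in either state or without stimulated PGE2 replicate 3. The adjusted p over all alternatives ran from 0.00254 to 0.432. *St8sia1*, the ganglioside GD3 synthase gene, fell with beads from 87.9 ± 9.34 to 29.7 ± 1.59 CPM without PGE2 (log2 change −1.58, adjusted p = 1.90e-08) and by 1.68 on the log2 scale with PGE2 (adjusted p = 1.19e-06). Of the further family members tested with beads, 4 rose, 4 fell and 1 did not pass out of 9 without PGE2, and 4 rose and 4 fell out of 8 with it. Of all genes 31.7% rose and 34.8% fell without PGE2, and 32.5% rose and 31.7% fell with it. With PGE2, 1 rose and 1 fell of 8 tested in stimulated cells (6.04% and 3.80% of all genes), and 2 rose and 3 fell of 9 tested in unstimulated cells (12.9% and 15.5%).

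**Figure D4:**
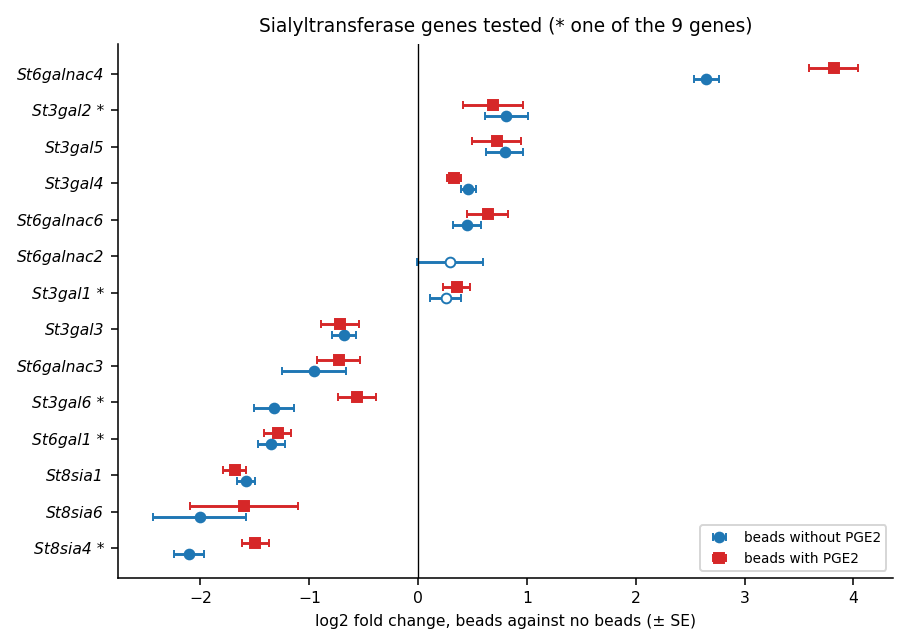
Log2 fold change ± SE with beads (horizontal axis; edgeR, 4 samples against 4) for the 14 sialyltransferase genes that could be tested, without PGE2 (circles) and with PGE2 (squares), filled where the adjusted p was below 0.05. *St6galnac4* stands highest at 2.65 and 3.82. *St8sia4* is the lowest without PGE2, at −2.11, but with PGE2 its −1.496 lies above *St8sia1* (−1.68) and *St8sia6* (−1.60). *St8sia6* had at most 51 counts in a sample, with an SE of 0.43 without and 0.50 with PGE2. Its order against *St8sia4* lies within that SE in both comparisons.

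The genes around the pathway were read from further lists. Of 9 other genes for the supply, processing and transport of sialic acid, 8 were tested with beads without PGE2, of which 4 rose and 2 fell, beside 31.7% and 34.8% of all genes. *Uap1*, which makes UDP-N-acetylglucosamine, rose by 1.51 on the log2 scale (adjusted p = 1.90e-08), from 34.3 ± 3.11 to 98.9 ± 4.86 CPM, and *Pgm3*, the step before it, rose by 1.13 (adjusted p = 1.88e-05). With PGE2 present 4 of 8 rose and 1 fell with beads (32.5% and 31.7% of all genes), *Uap1* by 1.69 (adjusted p = 1.10e-06) and *Pgm3* by 1.42 (adjusted p = 1.30e-05). PGE2 in stimulated cells gave 0 of 9 by edgeR, with 2 (*Nanp* and *Slc35a1*) at an unadjusted p below 0.05, where 27.0% of all genes had one, and 0 by DESeq2. Of 8 in unstimulated cells, where 12.9% of all genes rose and 15.5% fell, 1 was higher (*Nagk*, log2 change 0.38, adjusted p = 0.0159) and 1 lower (*Pgm3*, −0.41, adjusted p = 0.0237). The *Nagk* call was lost without PGE2 replicate 3, and the *Pgm3* call without untreated replicate 1 or 2 or without PGE2 replicate 1, 2 or 3, with an adjusted p of up to 0.193 and 0.0951 over all alternatives.

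Of 6 genes tested for the removal and modification of sialic acid, 5 fell with beads without PGE2 and 3 with it, and the others did not pass, where 34.8% and 31.7% of all genes fell. *Siae*, the sialic acid 9-O-acetylesterase gene, fell by 1.67 and by 1.21 on the log2 scale (adjusted p = 3.86e-08 and 1.53e-05). *Ctsa*, whose product stabilises the lysosomal sialidase, fell by 0.78 and by 0.64 (adjusted p = 3.12e-06 and 6.60e-05). With PGE2, *Siae* alone passed in stimulated cells (log2 change 0.55, adjusted p = 0.0388), a call lost in 6 of 8 fits that left out 1 library. In unstimulated cells 0 of the 6 passed, by edgeR, by DESeq2 or at an unadjusted p below 0.05, which 38.9% of all genes had. With beads, *B4galt1*, which adds the galactose that sialic acid caps on N-glycans, fell by 1.91 on the log2 scale without PGE2 (adjusted p = 1.84e-08) and fell by 1.63 with PGE2 (adjusted p = 2.62e-06). It was 1 of 9 acceptor and fucosyltransferase genes, of which 5 rose and 4 fell in either bead comparison (31.7% and 34.8% of all genes without PGE2, 32.5% and 31.7% with it). *Mgat5*, which branches N-glycans, rose with beads and PGE2 by 1.20 (adjusted p = 3.93e-06) and with PGE2 in stimulated cells by 0.54 (adjusted p = 0.00311). *Fut4*, a fucosyltransferase gene, fell by 0.52 in the latter comparison (adjusted p = 0.0232), a call lost in 5 of 8 fits that left out 1 library. In unstimulated cells *Fut4* fell further with PGE2, by 1.499 on the log2 scale (adjusted p = 0.000118), at a mean below 5 CPM. Its interaction was 0.997 (adjusted p = 0.0249), a call lost in 8 of 16 fits that left out 1 library. *Mgat5* and *Fut4* were the 1 higher and 1 lower of 9 for PGE2 in stimulated cells, and PGE2 in unstimulated cells also gave 1 and 1 (6.04% and 3.80%, then 12.9% and 15.5% of all genes).

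Among carriers of sialic acid, 1 of 6 tested rose and 4 fell with beads without PGE2, and 1 of 7 rose and 4 fell with PGE2, where 31.7% and 34.8%, then 32.5% and 31.7% of all genes did. With PGE2, 3 of 7 rose and 2 fell in stimulated cells (6.04% and 3.80% of all genes), and 2 of 7 rose and 2 fell in unstimulated cells (12.9% and 15.5%). *Ccr7*, the lymph node homing receptor that carries polysialic acid, fell by 1.23 on the log2 scale with beads without PGE2 (adjusted p = 2.12e-06). With PGE2 it rose by 1.41 in stimulated cells (adjusted p = 0.00153) and by 0.63 in unstimulated cells (adjusted p = 1.42e-05). *Selplg*, the P-selectin ligand gene, rose by 0.53 in stimulated cells (adjusted p = 0.0336), a call lost in 5 of 8 fits that left out 1 library. *Cd8a* fell with PGE2 in both states, by 0.42 (adjusted p = 0.00594) in stimulated and by 0.44 (adjusted p = 0.000282) in unstimulated cells. *Spn*, the heavily O-glycosylated CD43, fell by 1.05 with beads alone and fell by 0.89 with beads and PGE2 (adjusted p = 3.90e-07 and 1.16e-05). None of the 9 genes for siglecs, the receptors that bind sialic acid, had enough counts for the pairwise tests, and the highest group mean among them was 0.302 CPM for *Cd22*.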

How the data were processed

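RNA-seq of 16 samples was used. The authors made poly(A) libraries (NEBNext Ultra), sequenced them in paired-end mode, aligned reads to GRCm38 with HISAT2 2.0.5 and counted them per gene with featureCounts 1.5.0-p3, and per the labels used DESeq2 1.20.0. The deposited counts are whole numbers without normalization. The deposited FPKM values were computed by the authors from counts and gene length. The annotation release and the use of strand are not given in the sources used here. Exons came from GENCODE M21, whose coordinates equal those of the count table for all 9 genes.

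The members and lists were chosen with earlier results of these data known. Counts were tested with edgeR 4.0.16 (R 4.3.3): genes kept by filterByExpr at a minimum count of 10, TMM factors, a quasi-likelihood F-test (glmQLFit, glmQLFTest), and Benjamini-Hochberg adjustment over all genes kept. Pairwise fits held 8 samples and the interaction fit 16, without covariates. *Cmah* was left out of every count and test, since each of its comparisons shares samples with its selection. Log2 CPM used a prior count of 2. All 9 genes are named. From each other list at most 2 passing genes per comparison were picked for naming, those with the largest change and a mean of at least 5 CPM. Values of a picked gene are in some cases also given for a comparison in which it was not picked. The rule did not bind genes given for an unadjusted p, a figure or a highest level.

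Samples of the same replicate number deviated together in 3 comparisons (r of 0.19 to 0.42 for PGE2 in stimulated cells, 0.14 to 0.44 for PGE2 in unstimulated cells and 0.11 to 0.36 for beads without PGE2, 4 pairs each, all over 0.1). The number was taken to pair the samples there, from the data since no label says so, and the blocked value is given where it changed a call. For beads with PGE2 only 2 of 4 pairs were over 0.1. Samples of unequal number had r of −0.39 to 0.25 over all pairs of groups. In stimulated cells, untreated replicate 4 and PGE2 replicate 3 had r = 0.25, above the 0.19 of the 2 samples numbered 2. The rule thus does not fully separate equal from unequal numbers, and the blocked values carry that limit. The alternatives were other factors (RLE, upper quartile), other filters (none, or 10 counts in each sample), DESeq2 1.42.0, limma 3.58.1 with a trend (log2 of FPKM plus 1 or plus 0.1 where the mean FPKM was at least 1, and plus 1 for every gene), the replicate block, a joint fit of the 16 samples, and the omission of 1 library at a time. One gene of the marker lists is not reported here and was left out of the summed levels.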

Additional observations from a re-analysis of the deposited data

How the results depend on the processing

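Of the called differences between groups, none changed sign under any alternative. The number of passing genes moved by over 1.5 times in these cases. On log2(FPKM + 1) without a filter (limma), 2 genes passed in place of 4 for PGE2 in stimulated cells. The calls lost there were *St3gal6* (adjusted p = 0.0810) and *St8sia4* (adjusted p = 0.0538). In the same setting, 4 passed in place of 7 for beads with PGE2. Those lost were *St3gal1*, *St3gal2* and *St3gal6* (adjusted p = 0.140, 0.109 and 0.0765). On log2(FPKM + 1) with or without the filter, the DEGs numbered 0 in place of 1 for PGE2 in unstimulated cells and 1 in place of 2 for beads with PGE2, since the pseudocount shrinks changes of low genes. The interaction had 0 passing genes under each alternative but the replicate block.

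With the replicate block, 5 genes passed in place of 3 for PGE2 in unstimulated cells, while all genes passing rose from 4122 to 6938 of 14505 (47.8%). The replicate block gave 1 in place of 0 for the interaction (*St3gal6*, adjusted p = 0.0280; 2.70% of all genes), where 21 of 24 pairs of equal number were over the threshold of 0.1 and the number was not taken as a pairing. For beads with PGE2, where it was not either, the replicate block left 7 of 8 passing (67.5% of all genes).

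Upper-quartile factors moved the median log2 change of all genes with beads to −0.13 without PGE2 (from −0.03) and with PGE2 (from 0.00). *Nans* then stood at −0.0035 without PGE2, and *St6gal1* with PGE2 in stimulated cells at 0.011. Log2 differences near 0 that had not passed changed sign as follows. In the interaction, *Nans* went to −0.011 (RLE), −0.0082 (upper quartile), −0.028 (no filter), −0.013 (DESeq2), −0.011 (FPKM + 1, filtered or not) and −0.011 (FPKM + 0.1). *Gne* went to −0.012, −0.0075, −0.028, −0.010, −0.013 and −0.016 under the same settings in that order. *St6gal1* went to −0.0030 (no filter), −0.0063 (FPKM + 1, filtered or not) and −0.0094 (FPKM + 0.1).

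With 1 library left out, the interaction ranged from −0.027 to 0.026 for *Nans*, −0.054 to 0.050 for *Gne*, −0.039 to 0.17 for *St3gal1*, −0.38 to 0.057 for *St3gal2* and −0.097 to 0.13 for *St6gal1*. *St6gal1* ranged from −0.12 to 0.077 for PGE2 in stimulated and from −0.13 to 0.099 in unstimulated cells, where *St3gal2* ranged from −0.41 to 0.040. Neighbouring genes overlapped in FPKM in 14 of 32 pairs, and in 13 on TMM-scaled CPM per kilobase, which used the same gene lengths.

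Depth limits *St3gal2* (71 to 338 counts per sample) most. Intervals over 4 samples are wide, and a change that did not pass is not shown to be absent.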
